A study of Mus musculus with 4 samples.

Results

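Transcripts of the interferon and JAK-STAT pathway were examined in cultured mouse osteoblasts, as 38 listed genes: interferon regulatory factors (IRFs), interferon receptors, JAK kinases and STAT factors, SOCS-family feedback inhibitors and interferon-induced effectors. Each gene was represented by the array feature annotated to it alone that had the highest mean over the arrays. Such a feature existed for 36 of the 38, out of 22180 genes named in this way, and all 36 lay above the detection floor, as did 17841 genes in all. Irf5 and Gbp2 were not analysed here, because their features also carry another gene's symbol.

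The cultures came from calvarial bone of neonatal mice and were taken after 21 days in osteogenic medium with ascorbate and glycerol phosphate. One group was labelled Runx3f/f/Col1a1-cre, in which Cre under the control of Col1a1, a promoter of cells that make type I collagen, is meant to delete Runx3, a Runt-family transcription factor. The other group was labelled WT, and the labels do not say whether it carried floxed alleles. Total RNA was read on Affymetrix Mouse Gene ST arrays, 2 per group, called biological replicates 1 and 2 by the labels, which do not say whether these were separate litters or pools. P-values therefore measure only the spread between these samples.

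Values are log2 signals as deposited, base 2 being inferred from their range so that every fold rests on it, and a difference is always mutant-labelled minus wild type. Runx3 was not lower on the mutant-labelled arrays: its signal was 7.94 and 8.06 there against 7.45 and 7.87 in wild type, and the deleted exons are not given, so this feature may not check the deletion. Features read by both groups of 1 replicate number often held exactly equal values (35.8% of tested genes in replicate 1 and 50.2% in replicate 2, against 0 rows between any other pair of arrays). The sources used here do not give their origin, and an equal value does not establish that a gene was unchanged. Of 8 osteoblast markers, Col1a1 was bright on all arrays (13.45 to 13.57) and Bglap, the osteocalcin gene, dim (5.19 to 6.06). Ibsp, Dmp1, Phex and Bglap were lower on the mutant-labelled array in both replicates, the first 3 by at least 1.5-fold. The tissue tag of the labels reads myoblast. Of 5 myoblast markers, Myod1, Myf5, Myog and Pax7 lay between 5.45 and 6.72, where the floor was 4.71. Des was brighter, between 7.59 and 8.24, and higher on the mutant-labelled array by 0.51 and 0.25. These values do not settle what the tag refers to. The median signal over tested genes was 7.53 for replicate 1 and 7.81 for replicate 2 in either group, an offset that both groups share.

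Interferons bind paired receptor chains that carry JAK kinases, which phosphorylate STAT factors. Type I interferon assembles a complex with STAT2 and IRF9 that binds the interferon-stimulated response element, while STAT dimers activated by interferon gamma or by cytokines such as interleukin 6 bind a shorter palindromic site. Among the induced genes are antiviral effectors, further IRFs, and the SOCS proteins and Usp18, which shut receptor signalling down. In bone, interferon signalling restrains osteoclast formation, and the cytokines of the interleukin 6 family act on osteoblasts through STAT3.

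The larger differences lay in a few regulators, and most of the other genes, effectors included, were near even. Irf1, Socs3 and Stat2 exceeded wild type by at least 1.5-fold (0.58 on the log2 scale) in both replicates, 3 of 36 genes (8.33%) against 1.47% of all tested genes. None of the 36 was 1.5-fold lower in both, against 1.15% of all tested genes. Because the genes were listed with earlier results of these data known, these and later shares describe the list and cannot serve as a test. With a lower limit, a log2 difference of 0.32 in both replicates, the count became 5 of 36 (13.9%, against 3.55%), with Socs1 and Oasl2 added, and 0 of 36 were lower (against 2.84%). Of the other genes 29 stayed within 0.32 of wild type in both replicates, which left Cish, higher by more in replicate 1 only, and Irf8, lower by more in replicate 2 only. The median difference was 0.0018 over the 36 genes and 0 over all tested genes. Exactly equal values of unknown origin enter these figures. They were held by 5 of the 36 genes in replicate 1 (13.9%, against 35.8% of all tested genes) and 14 in replicate 2 (38.9%, against 50.2%). In at least 1 replicate 15 of the 36 held them, so a value near even does not establish that a gene was unchanged.

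**Figure D1:**
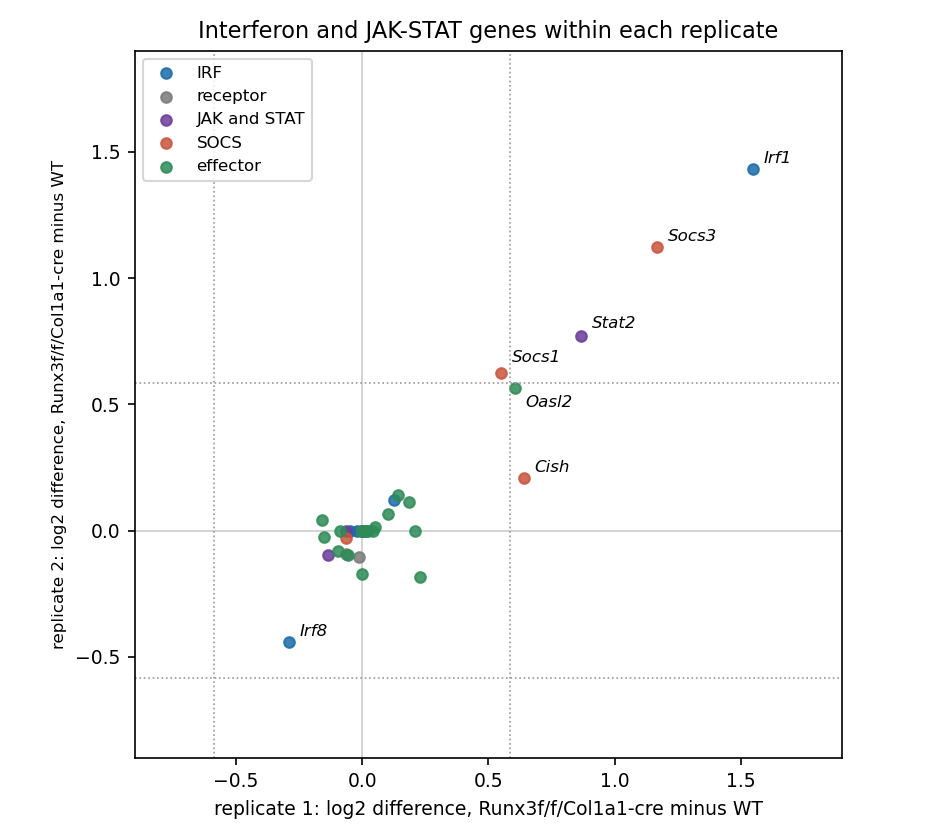
Log2 difference between the mutant-labelled and the wild-type array within replicate 1 (horizontal axis) and within replicate 2 (vertical axis) for the 36 genes, coloured by role, with dotted lines at 1.5-fold. Irf1, Socs3 and Stat2 lie beyond the lines in both replicates, Socs1 and Oasl2 lie at them, and most other genes lie near 0.

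In the limma fit across all 17841 genes without a term for the replicate number, 0 of the 36 genes passed an adjusted p of 0.05, as did 0 of all genes (0%). At an unadjusted p under 0.05 there were 4 of the 36 (11.1%), Irf1, Stat2, Socs1 and Socs3, against 3.96% of all tested genes. With the replicate number as a block, 9 of the 36 (25%) had an unadjusted p under 0.05, against 13% of all tested genes, and again 0 passed the adjusted threshold. The 9 included Irf9, Stat3, Oas2 and Usp18, whose mean differences were 0.12, -0.12, -0.09 and 0.14, with SEs in that fit from 0.0011 to 0.016. Genes with equal values in both replicates, 25.7% of those tested, leave no residual in that fit, and Ifngr1, for example, had an SE of 0.0011. How far such genes lower the SEs and p-values of others was not tested. After quantile normalization again with the block, a setting chosen after the data were seen, Irf1, Socs3, Stat2 and Oasl2 passed the adjusted threshold, 4 of 36, where 2.3% of all genes tested did.

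Among the IRFs the difference lay in Irf1, a transcription factor that is induced within hours by interferon gamma and that activates antigen presentation and antiviral genes. Its signal was 9.95 and 10.62 on the mutant-labelled arrays and 8.40 and 9.19 on the wild-type arrays, in the order of replicates 1 and 2. Both mutant-labelled arrays lay above both wild-type arrays, with a gap between the lower mutant-labelled and the higher wild-type value. The difference was 1.55 within replicate 1 and 1.43 within replicate 2, a mean of 1.49 (SE 0.40, 2.81-fold, limma unadjusted p = 0.0258, adjusted p = 0.987). Only 0.191% of tested genes had a larger mean difference. With the block the SE was 0.049 and the adjusted p 0.199.

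The other IRFs were close to even between the groups, with 1 exception on the lower side. Irf2, which competes with IRF1 for its sites, differed by 0.02 and 0 in the replicates, and Irf3, the factor activated by viral sensors, by -0.02 and 0. Irf7, which amplifies type I interferon production and is itself strongly interferon-induced, differed by -0.05 and 0. Irf9, the DNA-binding partner of STAT2, was higher by 0.13 and 0.12, less than the offset between its replicates (8.995 and 9.36 on the mutant-labelled arrays, 8.87 and 9.24 in wild type). Irf8, a factor of monocytes, macrophages and dendritic cells, was lower, at 5.55 and 6.12 against 5.84 and 6.56. Its arrays overlapped between the groups, and its difference of -0.36 (SE 0.36, adjusted p = 1) did not pass. A dimmer feature of Irf8 held equal values within each replicate, at 4.47 and 4.75.

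Irf8 was lower in both replicates, as were most macrophage markers. All 23 markers of the list had a feature. In both replicates 20 were lower (87%, against 19.5% of all tested genes) and 0 higher. The other 3, Aif1, Cx3cr1 and Mertk, held equal values within each replicate, Mertk at 9.28 and 9.06. By at least 1.5-fold 18 of the 23 markers were lower in both (78.3%, against 1.15%). Their summed linear signal was 3875 and 4285 on the mutant-labelled arrays and 10634 and 11292 on the wild-type arrays, 2.74-fold and 2.63-fold lower. Adgre1, which encodes F4/80, stood at 5.61 and 6.16 against 8.21 and 8.44, above the floor on all arrays, while Cd163 (4.50) and Ptprc (4.60) each lay under it on 1 mutant-labelled array. Some genes of other marker lists differed between the groups too. Of the osteoblast markers 4 of 8 (50%) were lower in both replicates, with Ibsp at -1.56 and -1.53, and 1, Sp7, was higher. All 3 adipocyte markers tested were lower in both, 0 of them by 1.5-fold. Of 4 endothelial markers Cdh5 was higher, by 1.70 and 1.27, while Pecam1, Kdr and Tek were not higher in both. Of 5 osteoclast markers tested 2 were higher in both and 1, Atp6v0d2, was lower (-1.54 and -0.94). The part of any of these cell types in the interferon gene values was not tested, and in bulk RNA fewer cells of a type and less RNA per cell cannot be told apart. Irf1, Socs3, Stat2, Socs1 and Oasl2, picked by their own values, were higher in both replicates. So were single markers of several other lists, namely Sp7, Cdh5, Acp5, Oscar and Des, while most markers of each of those lists were not. A relation of these 5 genes to any cell type was not tested. Markers of lymphocytes and neutrophils ranged from 3.41 to 5.68 and none of the 10 with a feature was higher in both replicates or lower in both.

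The receptors were among the most even genes of the set. Ifngr1, the ligand-binding chain for interferon gamma, held the same value in both groups in each replicate (10.89 and 10.95), and Ifngr2, its partner chain, differed by -0.01 and -0.10. Ifnar1 and Ifnar2, the chains of the type I interferon receptor, differed by -0.06 and -0.09 and by 0.01 and 0. Both mutant-labelled arrays of Ifnar1 lay below both wild-type arrays (10.83 and 10.76 against 10.89 and 10.85), the only such case among the 36 (2.78%, against 9.25% of all tested genes), and its mean difference was -0.08.

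Of the kinases and STAT factors, Stat2 stood out. STAT2 is the STAT that serves type I and type III interferon receptors almost exclusively. Stat2 read 9.68 and 9.91 on the mutant-labelled arrays and 8.81 and 9.14 in wild type, so the groups did not overlap. The difference was 0.87 and 0.77 within the replicates, a mean of 0.82 (SE 0.19, 1.76-fold, limma unadjusted p = 0.0156, adjusted p = 0.833). Jak1, the kinase shared by all interferon receptors, held equal values within each replicate (11.57 and 11.67). Jak2, which serves the interferon gamma receptor, differed by -0.06 and 0, and Stat3, the STAT of the interleukin 6 family, by -0.14 and -0.10.

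Of the 4 listed SOCS-family genes 3 were higher in both replicates, where 16.8% of all tested genes were, with Socs3 the furthest apart. The family genes outside the list, Socs4, Socs5, Socs6 and Socs7, were not higher in both replicates. They differed by 0 and 0, by -0.55 and -0.32, by -0.02 and 0, and by 0.09 and 0. SOCS3 binds the gp130 receptor chain and JAKs and is induced by STAT3. Socs3 read 10.49 and 10.92 on the mutant-labelled arrays and 9.32 and 9.80 in wild type, without overlap. The difference was 1.17 and 1.12 within the replicates, a mean of 1.15 (SE 0.27, 2.21-fold, limma unadjusted p = 0.0160, adjusted p = 0.833). A separate, dimmer feature of Socs3 gave 6.65 and 7.39 against 5.70 and 6.38, a difference of 0.95 and 1.01. Both features thus showed a higher Socs3 signal in both replicates.

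Socs1, the SOCS protein most specific for interferon receptors, lay just at the 1.5-fold line. Its signal was 8.55 and 8.70 against 7.9996 and 8.07, and the groups did not overlap. The difference was 0.55 and 0.63, a mean of 0.59 (SE 0.13, 1.503-fold, limma unadjusted p = 0.0141, adjusted p = 0.812). Cish, a target of STAT5, read 7.24 and 7.92 against 6.60 and 7.72. Its arrays overlapped between the groups, its difference was 0.64 in replicate 1 and 0.21 in replicate 2, and a dimmer Cish feature differed by 0.04 and 0. Socs2, another STAT5 target and a brake on growth hormone signalling, differed by -0.06 and -0.03 on its brighter feature and by 0.06 and 0 on the other.

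**Figure D2:**
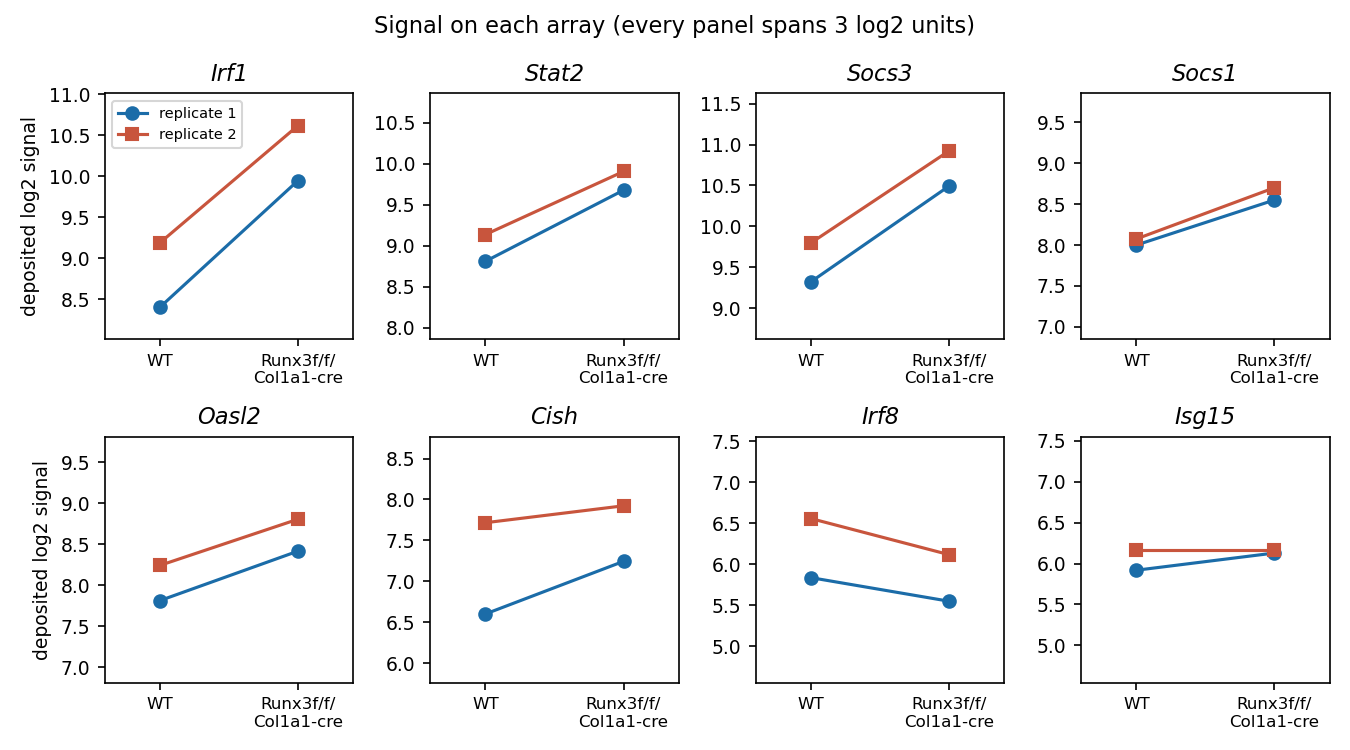
Deposited log2 signal of 8 genes on each array, with lines joining the wild-type and mutant-labelled arrays of the same replicate number (circles, replicate 1; squares, replicate 2). Irf1, Stat2, Socs3, Socs1 and Oasl2 were higher on the mutant-labelled array in both replicates, Cish mostly in replicate 1, Irf8 was lower in both, and Isg15 held equal values in replicate 2.

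As a group the effectors were near even, like most groups of regulators. The median difference was -0.0006 for the IRFs, -0.03 for the receptors, -0.02 for the kinases and STAT factors and 0.51 for the listed SOCS genes. Over the 18 effectors measured it was 0.01, and 8 of them held equal values in at least 1 replicate. Of the 18 effectors 5 (27.8%) were higher and 3 (16.7%) lower in both replicates, against 16.8% and 19.5% of all tested genes. Oasl2, an oligoadenylate synthetase-like antiviral protein, was the furthest apart. It read 8.42 and 8.81 on the mutant-labelled arrays and 7.81 and 8.24 in wild type, without overlap. The difference was 0.60 and 0.56, a mean of 0.58 (SE 0.25, 1.499-fold, limma unadjusted p = 0.0841, adjusted p = 1). With the block the SE was 0.017, the unadjusted p 0.00532 and the adjusted p 0.191.

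The classical interferon-induced antiviral genes showed small or no differences. Isg15, a ubiquitin-like modifier, read 6.13 and 6.17 against 5.92 and 6.17, higher in replicate 1 and equal in replicate 2. Ifit1, Ifit2 and Ifit3, which bind foreign RNA or its partners, differed by 0.02 and 0, by 0 and 0, and by -0.16 and 0.04. Usp18, the protease that removes ISG15 and also blocks the type I receptor, was higher by 0.14 in each replicate, at 8.48 and 8.87 against 8.34 and 8.73. Its groups overlapped because the offset between replicates was larger than the difference. Rsad2, which encodes viperin, differed by 0 and -0.17, Oas2 by -0.10 and -0.08, and the dynamin-like GTPase gene Mx2 by 0.23 and -0.18.

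The remaining effectors were likewise near even. The RNA sensors Ifih1 (MDA5) and Ddx58 (RIG-I) differed by 0.04 and 0 and by 0.05 and 0.01. Ifitm3, a membrane protein that restricts viral entry, differed by 0.10 and 0.07, Ifi35 by 0.02 and 0, and Bst2, or tetherin, held equal values within each replicate (5.79 and 6.26). Gbp3, a guanylate-binding GTPase, was higher by 0.18 and 0.11 and was the sixth gene without overlap, at 6.19 and 6.11 against 6.01 and 6.001. In all 6 of the 36 (16.7%) had both mutant-labelled arrays above both wild-type arrays, against 7.66% of all tested genes. The peptide transporter gene Tap1 differed by -0.06 and -0.10, and the immunoproteasome subunit genes Psmb8 and Psmb9 by -0.09 and 0 and by -0.15 and -0.03. Of the 36 genes 4, namely Ifngr1, Jak1, Ifit2 and Bst2, held equal values in both replicates (11.1%, against 25.7% of all tested genes).

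Several of these genes were dim, which limits what their values can show. The 90th percentile of the olfactory and vomeronasal receptor features, which are taken as silent, was 4.50 on each array of replicate 1, and in replicate 2 it was 5.08 (mutant-labelled) and 5.06 (wild type). Mx2 lay between 4.99 and 5.22 on the 4 arrays, so its value on the mutant-labelled array of replicate 2, 5.01, was under that level. The highest values of Rsad2, Oas2, Irf8 and Isg15 on any array were 5.71, 6.47, 6.56 and 6.17. Ifit, Oas and Gbp genes have close paralogues, and how much signal their features share was not tested.

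Promoter sequences are shown for the 5 genes with a log2 difference of at least 0.32 in both replicates, and for Isg15 and Ifit1, textbook interferon targets that were not, so that the sites of both sets can be read side by side. Each is the 250 bases before the annotated start, written 5′ to 3′ in the direction of the gene, from RefSeq on GRCm38.p6. Capitals mark matches to the core of the interferon-stimulated response element (GAAA, any pair of bases, then GAAA again, or TTTC, any pair of bases, then TTTC on the opposite strand) and to TTCNNNGAA, the core of a STAT site, which reads alike on both strands.
Irf1, chr11:53769764-53770013, plus strand: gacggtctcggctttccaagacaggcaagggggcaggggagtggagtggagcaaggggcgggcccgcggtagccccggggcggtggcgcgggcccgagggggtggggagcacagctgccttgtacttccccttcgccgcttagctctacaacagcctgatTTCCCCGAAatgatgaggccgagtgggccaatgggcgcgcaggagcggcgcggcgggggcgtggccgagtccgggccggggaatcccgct
Socs3, chr11:117969367-117969616, minus strand: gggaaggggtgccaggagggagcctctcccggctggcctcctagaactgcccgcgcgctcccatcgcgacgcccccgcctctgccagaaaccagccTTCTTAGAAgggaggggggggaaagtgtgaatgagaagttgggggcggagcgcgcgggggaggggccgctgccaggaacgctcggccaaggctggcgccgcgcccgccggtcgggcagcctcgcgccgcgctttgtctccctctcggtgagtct
Socs1, chr16:10785537-10785786, minus strand: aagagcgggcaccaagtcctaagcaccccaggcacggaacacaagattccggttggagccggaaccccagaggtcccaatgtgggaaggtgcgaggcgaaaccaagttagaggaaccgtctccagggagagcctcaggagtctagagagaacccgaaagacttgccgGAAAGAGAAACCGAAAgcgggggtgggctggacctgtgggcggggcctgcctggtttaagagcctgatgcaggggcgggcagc
Stat2, chr10:128270248-128270497, plus strand: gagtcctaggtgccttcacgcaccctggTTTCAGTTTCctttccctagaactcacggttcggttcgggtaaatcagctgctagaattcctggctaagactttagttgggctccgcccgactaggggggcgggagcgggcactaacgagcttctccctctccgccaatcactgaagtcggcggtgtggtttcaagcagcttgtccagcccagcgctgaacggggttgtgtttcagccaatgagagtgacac
Oasl2, chr5:114896684-114896933, plus strand: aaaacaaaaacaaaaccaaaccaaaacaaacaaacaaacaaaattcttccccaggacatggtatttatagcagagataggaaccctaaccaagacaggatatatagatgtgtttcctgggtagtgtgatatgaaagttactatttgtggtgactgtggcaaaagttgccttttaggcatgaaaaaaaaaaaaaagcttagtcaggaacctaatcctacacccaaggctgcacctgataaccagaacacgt
Isg15, chr4:156200819-156201068, minus strand: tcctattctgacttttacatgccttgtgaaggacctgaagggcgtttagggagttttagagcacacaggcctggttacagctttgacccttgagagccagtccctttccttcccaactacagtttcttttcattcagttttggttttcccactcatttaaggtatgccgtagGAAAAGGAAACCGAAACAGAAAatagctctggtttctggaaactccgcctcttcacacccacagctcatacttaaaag
Ifit1, chr19:34640639-34640888, plus strand: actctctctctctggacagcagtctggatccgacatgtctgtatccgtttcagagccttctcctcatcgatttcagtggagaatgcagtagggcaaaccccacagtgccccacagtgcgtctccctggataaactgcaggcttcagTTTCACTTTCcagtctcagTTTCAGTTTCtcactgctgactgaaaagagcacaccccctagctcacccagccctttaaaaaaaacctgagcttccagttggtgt

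Irf1 and Socs3 each held 1 STAT core, starting 90 and 154 bases before the start, and no response element core. Socs1 held 2 overlapping response element cores from 83 bases before the start, and Stat2 held 1 at 222 bases. Oasl2 held neither motif in this window. Isg15 held 3 overlapping response element cores from 78 bases and Ifit1 held 2, at 104 and 85 bases. The response element core occurred in Socs1 and Stat2, which were higher by at least 0.32 in both replicates, and in Isg15 and Ifit1, which were not. Whether the core has a part in any difference was not tested. Irf1 has a second annotated start, whose window held neither motif.

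Over the whole RefSeq windows, which run from 250 bases before to 50 after a start, 32 of the 36 genes matched, with 37 windows. The response element core was found in 12 of these 37 windows (32.4%), against 3.44% of all 32851 windows, and the STAT core in 12 (32.4%), against 8.3%. The genes were listed for their place in this pathway, so these shares describe the list and cannot serve as a test. The genes with the response element core were Bst2, Ddx58, Gbp3, Ifih1, Ifit1, Ifit3, Ifitm3, Irf2, Isg15, Rsad2, Socs1 and Stat2. Of these 12 genes 2, Socs1 and Stat2, were higher by at least 0.32 in both replicates, and the median difference was 0.03. The 12 genes with the STAT core had a median difference of 0.01, and 2 of them, Irf1 and Socs3, were that much higher. A core occurs in both sets for Bst2, Ifitm3 and Irf2, and in Bst2 and Ifitm3 the motifs overlap. The matches describe letters in these windows and say nothing of whether a factor was bound.

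Beyond the 36 genes, 121 further entries of the pathway were looked up, of which 93 were tested, and they were mostly even. Past 1.5-fold in both replicates 1 was higher and 1 lower (1.08% each), near the 1.47% and 1.15% of all tested genes. Gbp5, a guanylate-binding protein that promotes inflammasome assembly, read 6.15 and 6.97 on the mutant-labelled arrays and 5.08 and 5.88 in wild type. Its difference was 1.08 and 1.09, a mean of 1.09 (SE 0.44, 2.12-fold, limma adjusted p = 1). In the limma fit with the block its SE was 0.0068 and its adjusted p 0.155. Il10ra, a chain of the interleukin 10 receptor found on blood cells including macrophages, read 4.39 and 4.83 against 5.19 and 5.68, so its mutant-labelled values lay at background: the first under the floor, the second under the 90th percentile of the olfactory and vomeronasal receptor features on that array (5.08). Its difference was -0.80 and -0.85 (SE 0.27, limma adjusted p = 1), in the direction of the macrophage markers. For Il10ra the limma fit with the block gave an SE of 0.020 and an adjusted p of 0.180.

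With the limit of 0.32 in both replicates 6 of the 93 were higher (6.45%, against 3.55% of all tested genes) and 2 lower (2.15%, against 2.84%). The further pathway genes other than Gbp5 and Il10ra are named after their values were seen. Xaf1, an interferon-induced apoptosis factor, differed by 0.69 and 0.52, Gbp7 by 0.58 and 0.47, and the large ubiquitin ligase gene Rnf213 by 0.53 and 0.39. Ikbke, a kinase of IRF3 and IRF7, differed by 0.46 and 0.38, and Il4ra, the interleukin 4 receptor chain, by 0.41 in each replicate. Socs5, another SOCS-family inhibitor, differed by -0.55 and -0.32. In limma 2 of the 93 (2.15%) had an unadjusted p under 0.05, Il10ra and Il4ra, and 11 (11.8%) with the block. Both shares were below those of all tested genes (3.96% and 13%), with 0 past the adjusted threshold in either fit. The median over the 93 genes was 0, equal to that of all tested genes.

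**Figure D3:**
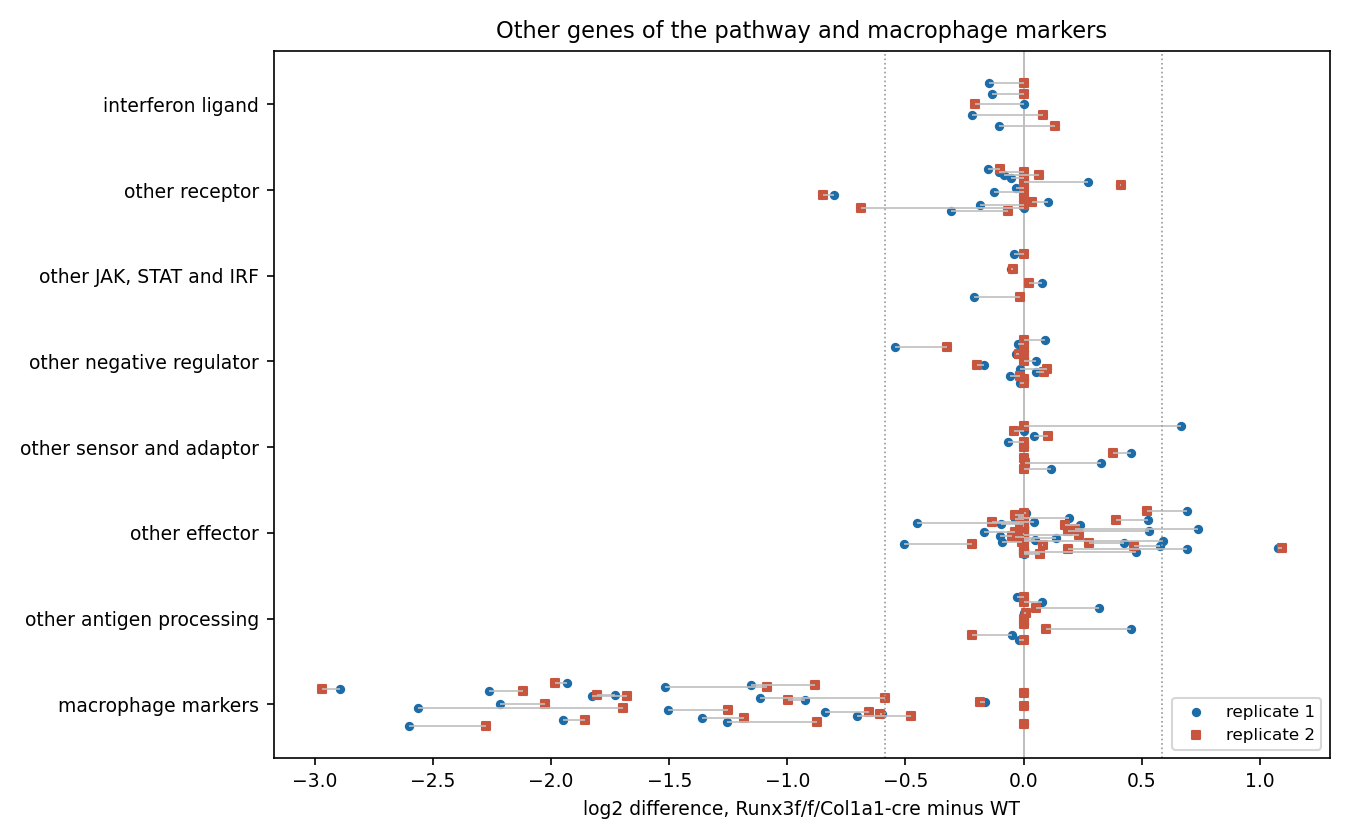
Log2 difference of the mutant-labelled minus the wild-type array for 93 further pathway genes, by role, and for 23 macrophage markers (circles, replicate 1; squares, replicate 2; each line joins the values of 1 gene; dotted lines mark 1.5-fold). Most pathway genes lie near 0, with Gbp5 at 1.08 and 1.09 on the higher side and Il10ra at -0.80 and -0.85 on the lower, while 20 of the 23 macrophage markers lie below 0 in both replicates.

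The interferons themselves gave no difference in a constant direction. Ifnb1, the gene of interferon beta, lay under the floor on all arrays (3.41 in both groups of replicate 1 and 4.00 in both of replicate 2), and Ifng, the gene of interferon gamma, read from 4.72 to 5.12. Ifna1, whose copies in the interferon alpha cluster are nearly identical, differed by -0.10 and 0.13. Of the 5 ligand genes tested 0 were higher and 0 lower in both replicates. The further receptor Il6st, which encodes gp130, differed by -0.05 and 0, and Osmr, the oncostatin M receptor chain, by -0.15 and -0.10. Tyk2, the remaining kinase of the type I receptor, differed by -0.04 and 0, and Stat5a, Stat5b and Stat6 by no more than 0.21 in size in either replicate.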

How the data were processed

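Values of 4 arrays were taken from the deposited series table. Per the submitters' processing notes they were made with Partek and RMA (versions and roles not given). The deposited values are read as log2 signals from their range (2.26 to 14.1); their log base, centring and joint normalization are not stated in those notes. Features were named through the platform annotation: 23521 rows had 1 symbol, 1814 several and 16010 none listed. The single-symbol row with the highest mean stood for a gene. Genes entered the test if 2 or more of the 4 arrays exceeded 4.71, the 90th percentile of the means of 1405 olfactory and vomeronasal receptor rows.

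Groups were compared with limma 3.58.1 in R 4.3.3 (lmFit, eBayes, two-sided, group only), adjusted by Benjamini-Hochberg over all 17841 genes at a threshold of 0.05, and by differences within each replicate number. The number of arrays limits the precision. Same-numbered arrays deviated together across genes (r = 0.92, raised by equal values), but no label ties a number to 1 litter or day, so the block was an alternative. Other alternatives were an intensity trend, the dim-gene filter, normalization, the mean of a gene's rows and each array left out. All 36 members with a feature are named; of other pathway genes, the rule named those at least 1.5-fold apart the same way in both replicates (Gbp5 and Il10ra), and others in the text were chosen after their values were seen. The fit was tested on simulated data. The members and lists were chosen with earlier results of these data known.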

Additional observations from a re-analysis of the deposited data

How the results depend on the processing

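With 2 arrays per group and equal values within replicate numbers, the tests separate few genes, and the Runx3 feature may not check the deletion. Of the 36 genes 0 passed the adjusted threshold in limma under each setting tried except quantile normalization again with the replicate block, added after the data were seen, where 4 did, beside 399 of all genes. There the differences were 1.47 for Irf1, 0.80 for Stat2, 1.13 for Socs3 and 0.57 for Oasl2. With the intensity trend 49 of all genes passed and 0 of the 36. At unadjusted p the 4 became 9 with the replicate block and 11 with both changes, and ran from 0 (without mutant-labelled replicate 2) to 3 with an array left out, with 2 without wild-type replicate 1. The 3 genes 1.5-fold higher in both replicates became 4 in replicate 2 alone and 5 in replicate 1 alone or at a log2 limit of 0.32. Over 12 alternatives Irf1 ranged from 1.10 to 1.88, Stat2 from 0.66 to 0.98, Socs3 from 0.91 to 1.38, Socs1 from 0.51 to 0.66 and Oasl2 from 0.37 to 0.80, and each kept its sign. Fits with 1 array left out contain the offset of the replicate numbers, and their medians over all genes ran from -0.16 to 0.15. The cause of these changes was not tested.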
